A study of Homo sapiens with 6 samples.

Results

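UGCG, the gene of glucosylceramide synthase, carried 39 of the 16230 Argonaute crosslink sites mapped in HK2 cells, an immortalised line from human kidney proximal tubule. Its sites were taken as all those that the deposited annotation assigns to the symbol UGCG, and UGCG is 1 of 4361 genes named there. The gene was chosen for description because its crosslinked reads were fewer after TGF-beta1, so the difference between the control and treated libraries is described here and was not tested. Argonaute PAR-CLIP was compared between 2 control libraries and 2 libraries of cells that had received 20 ng/mL TGF-beta1 over 24 h. All 4 came from wild-type HK2 cells, with 24 h of serum starvation and 100 uM 4-thiouridine for the last 20 h named in the treatment protocol. The labels do not say whether replicates were separate cultures, so p-values measure only the spread between libraries, which may be technical. Pull-downs with IgG are part of the series but not analysed here, and no background level stands beside the values.

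Glucosylceramide synthase sits on the Golgi membrane and transfers glucose from UDP-glucose to ceramide. The product, glucosylceramide, is the precursor of lactosylceramide, the gangliosides and most other glycosphingolipids. Argonaute proteins carry microRNAs that pair with target RNAs mainly through the seed, bases 2 to 8 of the microRNA. In PAR-CLIP, a 4-thiouridine in the bound RNA is joined to the protein by light, and the crosslinked position is read out in sequencing.

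The UGCG sites that held most of the crosslinks are shown with 30 bases of RNA sense from the deposited table, written 5′ to 3′ in DNA letters. Base 15 of each window is the crosslinked T, and capitals mark the seed match that the authors list for the site. They are ordered along the transcript, with positions on the plus strand of chromosome 9, build hg38.
miR-21 site in the coding sequence, position 111932928: ttatgggacccaactATAAGCTggagaact
let-7 site, position 111933073: aatgcttttaaaaatCTACCTtctgtagtt
miR-17 and miR-20a site, position 111933191: tcttggccaaatgataCACTTTattttgtg
miR-200b and miR-429 site, position 111933327: aaactctgtgaCAGTATccttcagtagaga
miR-27 site, position 111933638: agtatttatatgaatCTGTGAgagataatt
miR-128 site, position 111933770: tgaaccattgttaatCACTGTGctgtaatt
miR-26 site, position 111934319: ggttgtgcttaacttgtggtgaactggACT
miR-22 site, position 111934495: taacactggcaatatGGCAGCTttaaattc
miR-221 and miR-222 site, position 111934543: atgtcaaagcataatgTGTAGCatatcagc
site with no listed match, position 111934898: gtttttaatcactattacctgagttgaact

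The mature microRNAs whose seeds these matches complement are shown from RefSeq (GRCh38.p14), with bases 2 to 8 in capitals, so that each can be read against its site. All 37 microRNA names listed at UGCG sites were matched to that table.
hsa-miR-128-3p: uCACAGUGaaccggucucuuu
hsa-miR-27a-3p: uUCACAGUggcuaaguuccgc
hsa-miR-26a-5p: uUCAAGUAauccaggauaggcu
hsa-let-7a-5p: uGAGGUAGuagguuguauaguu
hsa-miR-22-3p: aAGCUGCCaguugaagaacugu
hsa-miR-17-5p: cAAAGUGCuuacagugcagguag
hsa-miR-21-5p: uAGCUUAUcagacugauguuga
hsa-miR-221-3p: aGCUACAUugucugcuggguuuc
hsa-miR-200b-3p: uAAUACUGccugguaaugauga

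The matches to miR-128, miR-22 and miR-21 cover 7 bases, pairing with seed bases 2 to 8. Those to miR-27, miR-26, miR-17 and miR-221 cover 6 bases, pairing with bases 2 to 7, and those to let-7 and miR-200b pair with bases 3 to 8. In 5 of the windows (miR-21, let-7, miR-27, miR-128 and miR-22) the match begins on the base right after the crosslinked T, and at the miR-17 and miR-221 sites it begins 2 bases after it. In the miR-200b window the crosslinked T lies inside the match. The miR-26 match begins 13 bases after the crosslink, so only its first 3 bases fall in the window shown. The seeds of miR-128 and miR-27 overlap in sequence, and the authors list a miR-27 match at the miR-128 site as well. They also list a miR-196 match at the let-7 site, a miR-320 match at the miR-22 site and a miR-23 match at the miR-221 site. Each site is named here by its main listed match only.

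The 4 Argonaute libraries held 1714445 and 1926255 reads in control replicates 1 and 2, and 5293207 and 3415699 in TGF-beta1 replicates 1 and 2. Reads that carried a crosslink at a listed site numbered 36958, 53835, 74969 and 72206 in that order. Levels below are crosslinked reads in RPM (scaled to each library's total reads), scaled between libraries by the trimmed mean of M-values (TMM), whose factors were 1.05, 1.38, 0.666 and 1.03. Values in sequence are always given for control replicates 1 and 2, then TGF-beta1 replicates 1 and 2. None of 10 proximal tubule marker genes had a site in the table. Sites were present for 2 of 6 epithelial markers, KRT18 and CLDN1, and for none of 3 endothelial, 3 leukocyte and 4 fibroblast markers. A gene without a site has no Argonaute crosslink listed, which says nothing about its expression.

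Summed over its sites, UGCG had 313, 548, 181 and 182 crosslinked reads. The scaled levels were 173, 206, 51.3 and 51.8 RPM, so both control libraries lay above both treated ones, and the treated libraries nearly coincided. That closeness, and the small treated SD, depend on the TMM factors. Before TMM scaling 1 read stood for 0.189 RPM in TGF-beta1 replicate 1 and 0.293 RPM in TGF-beta1 replicate 2, so the unscaled levels lay further apart. The control mean was 189 ± 22.9 RPM (SD, n = 2) and the treated mean 51.6 ± 0.365 RPM (SD, n = 2), a 3.67-fold lower level after TGF-beta1. On the log2(scaled RPM + 1) scale the difference was -1.85 with a standard error of 0.20, where the median over the 1266 genes with enough reads to test was 0.02. In size this was number 4 among the decreases of those genes. By level, UGCG was number 4 of 4361 genes in the control libraries and number 45 in the treated ones, and by number of sites it was number 20. In bulk libraries, fewer cells binding UGCG and less bound UGCG RNA per cell cannot be told apart, and the abundance of UGCG RNA was not analysed here.

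Of the 39 sites, 30 lay in the 3′ UTR, 6 in the coding sequence and 3 in introns of the annotated transcript (ENST00000374279.3, gene ENSG00000148154.9). RefSeq places the gene at chr9:111896814-111935369 on the plus strand. The 3′ UTR sites began at position 111933073 and spread over 2036 bases, with a median spacing of 44 bases. No site of another gene name lay between the first and the last UGCG site. Neighbouring sites can share reads: 11 of the 39 lay within 30 bases of the site before.

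In the 3′ UTR, UGCG had 287, 492, 167 and 168 crosslinked reads. The control level was 172 ± 18.2 RPM and the treated level 47.6 ± 0.352 RPM (SD, n = 2 each), 3.61-fold lower. In the coding sequence there were 25, 48, 14 and 11 reads, and the level was 4.48-fold lower after TGF-beta1, at 15.9 ± 2.95 against 3.55 ± 0.591 RPM (SD, n = 2 each). Introns had 1, 8, 0 and 3 reads, with no usable ratio at that depth. Thus the 3′ UTR and the coding sites were both lower in each treated library than in each control library.

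The UGCG crosslinks were more often in the 3′ UTR than those at all other listed sites, in both conditions. These other sites include some in no named gene, since 15679 of the 16230 sites lie in named genes. The 3′ UTR held 90.7% ± 1.35 of UGCG crosslinked reads in control and 92.3% ± 0.0301 in treated libraries (SD, n = 2 each). Over all other sites it held 62.5% ± 5.32 and 58.0% ± 3.28. Sites with any listed seed match held 87.7% ± 0.190 and 87.1% ± 3.46 of UGCG reads, against 77.2% ± 3.25 and 75.0% ± 2.01 over all other sites. These shares are a description of single libraries and were not tested.

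Along the 3′ UTR, the sites were counted in steps of 500 bases from the first one. The first 4 steps held 7, 4, 6 and 11 sites, and the control level was 4.32-fold, 3.50-fold, 3.59-fold and 3.40-fold above the treated level in them. The last step held 2 sites with few reads, at 1.85 against 1.56 RPM. Lower levels after TGF-beta1 were thus spread over the first 4 steps, and the control libraries had the highest mean in the third, at 51.6 ± 10.3 RPM (SD, n = 2).

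**Figure D1:**
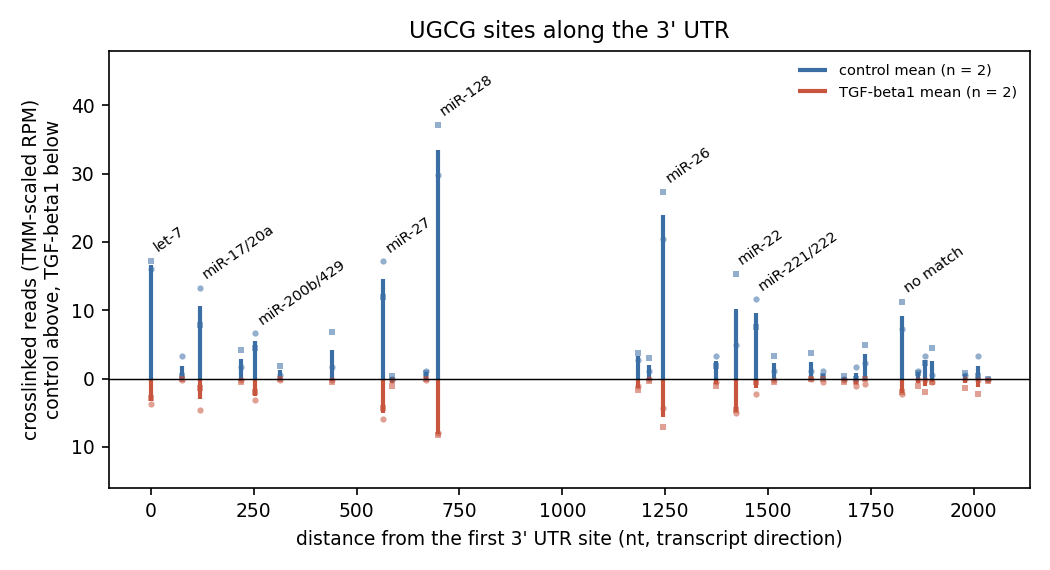
Crosslinked reads (TMM-scaled RPM) at each 3′ UTR site of UGCG against its distance in nucleotides from the first 3′ UTR site, with control libraries drawn above the line and TGF-beta1 libraries below it. The highest site is the miR-128 site, at 33.5 RPM in control and 8.10 RPM after TGF-beta1.

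Site by site, both control libraries were above both treated libraries at 25 of the 39 UGCG sites. Over all 15679 sites in named genes this held at 14.1% of sites, and since UGCG was chosen for its lower level after TGF-beta1, nothing is read from the contrast. The control mean was higher at 34 UGCG sites and the treated mean at 5. Crosslinks were seen in all 4 libraries at 20 sites, in 3 libraries at 13 and in 2 libraries at 6. Of the UGCG sites, 10 had enough reads in enough libraries to enter the fit of 1032 sites, by edgeR's filterByExpr. Its level was 3.74 RPM before TMM scaling, or 10 reads at the median library depth. The shallower control libraries thus reached it with fewer reads. At the miR-22 site, 9 reads in control replicate 1 reached it, and 18 in TGF-beta1 replicate 1 did not. The 10 sites in the fit held 922 of the 1224 UGCG reads, and the other 29 sites shared 302. Groups did not overlap at 9 of these 10, against 28.6% of all sites in the fit. All 10 reached the filter's level in both control libraries, and only 2 did so in both treated ones. With UGCG chosen for its lower level as well, nothing is read from this contrast.

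The miR-128 site was the highest UGCG site in every library. It had 54, 99, 28 and 29 crosslinked reads, or 29.9, 37.1, 7.94 and 8.26 RPM. The level was 4.14-fold lower after TGF-beta1, with a log2 difference of -1.92 ± 0.29 (SE). Among the 175 sites that the authors assign to miR-128 anywhere, it was number 1 in control and number 4 in treated libraries. Among all 16230 sites it moved from number 36 to number 290.

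The miR-26 site came next in 3 of the 4 libraries, with 37, 73, 15 and 25 reads. Its levels of 20.5, 27.4, 4.25 and 7.12 RPM gave a 4.21-fold lower treated mean and a log2 difference of -1.92 ± 0.35 (SE). In TGF-beta1 replicate 1 the miR-27 site was second instead. The miR-27 site had 31, 32, 21 and 15 reads, and its 17.1, 12.002, 5.95 and 4.27 RPM gave a 2.85-fold lower treated mean (log2 difference -1.34 ± 0.37, SE). All treated values of both sites lay below the lower control value.

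The let-7 site at the start of the 3′ UTR had 29, 46, 13 and 10 reads. Its levels were 16.04, 17.3, 3.69 and 2.85 RPM, 5.10-fold lower after TGF-beta1 (log2 difference -2.05 ± 0.37, SE). This site was number 12 of 546 let-7 sites in control and number 90 in treated libraries. The miR-17 and miR-20a site had 24, 21, 16 and 5 reads and 13.3, 7.88, 4.54 and 1.42 RPM, with a log2 difference of -1.62 ± 0.50 (SE). Without TGF-beta1 replicate 2 that difference was -0.95.

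The miR-22 site was the only 1 of the 10 at which the groups overlapped. It had 9, 41, 18 and 16 reads, or 4.98, 15.4, 5.10 and 4.56 RPM, so control replicate 1 lay between the treated libraries and control replicate 2 stood well above the others. The log2 difference of -0.76 ± 0.49 (SE) rested on that 1 library: it was -0.04 without control replicate 2 and -1.43 without control replicate 1. With read coverage in place of crosslinked reads it was -1.61, and without TMM scaling -1.24.

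The coding-sequence site with the miR-21 match had 14, 34, 11 and 5 reads. Its levels of 7.74, 12.8, 3.12 and 1.42 RPM were 4.51-fold lower after TGF-beta1 (log2 difference -1.80 ± 0.48, SE). It lay 145 bases before the first 3′ UTR site. The miR-221 and miR-222 site had 21, 20, 8 and 2 reads and 11.6, 7.50, 2.27 and 0.570 RPM, and had the largest ratio of the 10, 6.74-fold, with a log2 difference of -2.19 ± 0.53 (SE). Its treated value rested on few reads: without TGF-beta1 replicate 2 the difference was -1.60, smaller in size than those of the miR-26, miR-128 and let-7 sites.

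The miR-200b and miR-429 site had 12, 12, 11 and 7 reads, and its 6.64, 4.50, 3.12 and 1.99 RPM were 2.18-fold lower after TGF-beta1. Its log2 difference was -0.88 ± 0.49 (SE) from crosslinked reads and -2.07 from read coverage. The site without a listed match had 13, 30, 8 and 7 reads and 7.19, 11.3, 2.27 and 1.99 RPM, 4.33-fold lower (log2 difference -1.68 ± 0.46, SE). At low levels the pseudocount sets part of a log2 difference. With a pseudocount of 5 in place of 1, the miR-200b, miR-17, no-match, miR-21 and miR-221 sites had -0.48, -0.97, -0.98, -1.06 and -1.18.

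**Figure D2:**
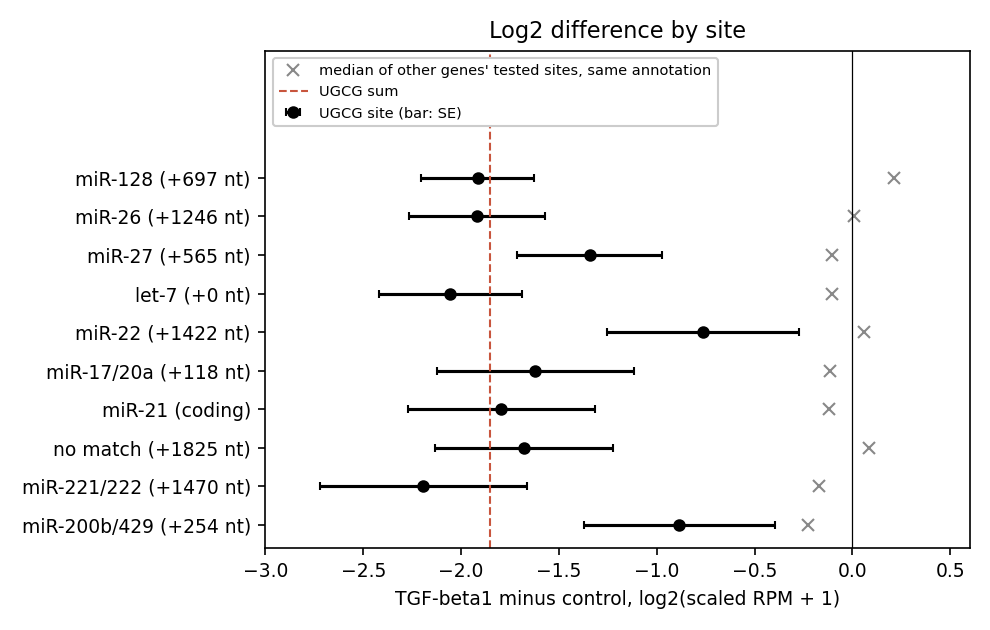
Log2 difference (TGF-beta1 minus control) of the 10 UGCG sites in the fit, with standard errors as bars. The dashed line is the sum over all UGCG sites (-1.85) and each cross the median of fitted sites with the same seed annotation in other genes. All 10 points lie below 0, from -2.19 at the miR-221 site to -0.76 at the miR-22 site.

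Another 12 UGCG sites had at least 10 reads over the 4 libraries and were too shallow for the fit. With the 10 above this made 22 sites, at 19 of which the control libraries lay above the treated ones, against 16.6% of all named-gene sites with 10 or more reads. UGCG was chosen for its lower level after TGF-beta1, so nothing is read from that contrast. A second let-7 site at position 111933513, with a match of 7 bases, had 3, 18, 1 and 2 reads, and another let-7 site at position 111934258 had 5, 10, 4 and 6. A second miR-27 site at position 111934808 had 4, 13, 3 and 0 reads. The miR-148 site at position 111934972 had 1, 12, 2 and 2 reads, most of them in control replicate 2.

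The miR-21 site of the 3′ UTR, at position 111934679, had 2, 10, 0 and 0 reads, at least 5.70-fold lower after TGF-beta1 against a floor of 3 reads over the treated libraries. That bound rested on control replicate 2, since control replicate 1 alone gave 2.60-fold over the same floor. The coding miR-29 site at position 111897273, the first of the gene, had 4, 9, 2 and 0 reads. A second miR-17 site at position 111934587 had 2, 9, 1 and 2 reads.

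The miR-205 site at position 111934955 had 6, 6, 1 and 7 reads, and the miR-146 site at position 111935083 had 6, 1, 1 and 8, so in both the treated replicates differed more than the group means. The 3 further sites had no listed match, at positions 111934446, 111934284 and 111933292. They had 6, 5, 2 and 4 reads, 2, 8, 0 and 1 reads, and 3, 11, 1 and 2 reads. The remaining 17 UGCG sites had 2 to 9 reads each. Among all 39, 2 sites had no read in either treated library and 1, at position 111935108, had none in either control library.

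Grouped by the main microRNA seed listed for each site, the 26 UGCG sites with a match fell into 15 families. The miR-128 family held 17.2% of all UGCG crosslinked reads, miR-26 12.99%, let-7 12.01% and miR-27 10.4%. Sites with no match held 12.5%. These shares pool the libraries. The miR-128 family led in each, while miR-27 had more reads than miR-26 and let-7 in control replicate 1 (41 against 39 and 37) and in TGF-beta1 replicate 1 (25 against 16 and 18). The miR-22, miR-17, miR-21, miR-221 and miR-200b families held 7.43%, 6.54%, 6.21%, 4.17% and 3.43%. The authors' score of microRNA reads per seed was 5023 for miR-128, 20784 for miR-26, 97405 for let-7 and 376262 for miR-21. The order of the UGCG sites was thus not the order of that score, by which miR-21 led and miR-128 was far below it.

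By the authors' classes of where the crosslink lies, matches next to it went with higher counts. The 13 sites with such a match, which begins 1 or 2 bases after the crosslink, held 757 reads, with a median of 51 reads per site. The 9 sites with a match close by held 140 reads (median 14), the 4 with a match elsewhere held 174 (median 11), and the 13 with none held 153 (median 8). Of those 174 reads, 150 lay at the miR-26 site, so that deep site departs from the pattern. Adjacent matches took 62.5% ± 0.335 of UGCG reads in control and 60.1% ± 13.5 in treated libraries (SD, n = 2 each), against 47.2% ± 5.03 and 42.9% ± 2.79 over all other listed sites.

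How UGCG crosslinks were split among the sites was described as site usage, each site's log2 difference against the rest of its gene (limma diffSplice over 512 sites in 184 genes). These estimates use the same crosslinked reads by which UGCG was chosen, and 8 of the 10 sites reached the filter's level in both control libraries but not in both treated ones, so no support is drawn from them. None of the 10 UGCG sites passed an adjusted p of 0.05, and none had an unadjusted p under it. Over all 512 sites the share called was 0%, and 24 sites, 4.69%, had an unadjusted p under 0.05. edgeR's diffSpliceDGE called 2 of the 512 sites and none in UGCG.

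The largest departure was at the miR-22 site, which was 0.95 ± 0.48 (SE) less reduced than the rest of the gene on the log2 scale, and control replicate 2 decided that site's difference. The miR-200b site departed by 0.81 and the miR-221 site by -0.64. The miR-128 and miR-26 sites both departed by -0.33, and the miR-17 site by less than 0.01. Every departure had a standard error of 0.48, so these values do not show that the sites behaved alike.

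By library, the 10 sites held 78.0%, 74.5%, 82.3% and 66.5% of the UGCG reads. The top 3 held 39.0%, 37.2%, 35.4% and 37.9%, and the miR-128 site alone 17.3%, 18.1%, 15.5% and 15.9%. The rank order of the 39 sites, as Spearman's rho on reads, was 0.71 between the control libraries, 0.59 between the treated ones and 0.52 to 0.80 between conditions. These rho values describe 39 sites that share libraries and, in part, reads.

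**Figure D3:**
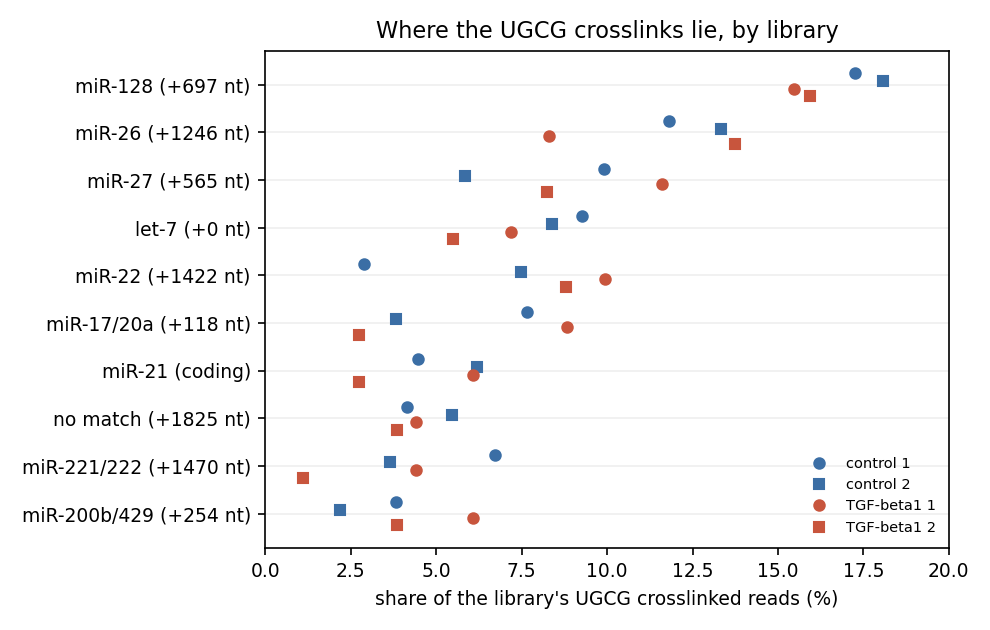
Share of each library's UGCG crosslinked reads (%) held by each of the 10 sites in the fit, 1 point per library. The miR-128 site has the highest share in all 4 libraries, between 15.5% and 18.1%.

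Fitted sites of the same seed families in other genes had medians from -0.23 (miR-200b) to 0.21 (miR-128). Over all 1032 sites fitted the median log2 difference was -0.06, with 2.42% called higher and 2.62% called lower after TGF-beta1 (limma, adjusted p of 0.05). For the 7 miR-128 sites in other genes the median was 0.21, for 26 miR-26 sites 0.01, and for 78 let-7 sites -0.10. Of these, 2 let-7 sites were called higher and 1 lower, and no miR-128 or miR-26 site was called.

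The counts called below stand beside the 2.42% higher and 2.62% lower of all 1032 sites fitted, and were not tested against them. For 73 miR-27 sites in other genes the median was -0.10, with 3 called lower. For 21 miR-22 sites it was 0.06 with 1 called higher, and for 36 miR-21 sites -0.12 with 3 called higher. For 59 miR-17 sites it was -0.11 with 3 called higher and 2 lower. It was -0.17 for 23 miR-221 sites and -0.23 for 18 miR-200b sites, with none called in either family. Sites with no listed match in other genes (174 fitted) had a median of 0.09, with 3 called higher and 5 lower. The 10 UGCG sites, from -2.19 to -0.76, all lay below each of these medians, which the choice of UGCG and of sites deep in control fixed in large part.

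Crosslinks per covering read are described next, without a test, because their numerator is the crosslinked reads by which UGCG was chosen. A crosslink was carried by 313 of 1160 covering reads in control replicate 1 (26.98%, Wilson 95% interval 24.5 to 29.6%) and by 548 of 1850 in control replicate 2 (29.6%, 27.6 to 31.7%). It was carried by 181 of 714 in TGF-beta1 replicate 1 (25.4%, 22.3 to 28.7%) and by 182 of 744 in TGF-beta1 replicate 2 (24.5%, 21.5 to 27.7%). Covering reads are summed over sites, so a read that spans neighbouring sites is counted at each. No molecular identifiers are named either, so these intervals cover counting error at most and may be too narrow.

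Both treated libraries were below both controls, at 24.9% ± 0.628 against 28.3% ± 1.87 (SD, n = 2 each). The difference was -3.40 percentage points. Over all other listed sites, named gene or not, the share was 27.05% ± 1.82 in control and 19.6% ± 2.28 in treated libraries, a difference of -7.45 points. At the 20 UGCG sites crosslinked in every library it was 35.4% ± 2.28 against 28.5% ± 0.851. Coverage is listed as 0 wherever a library has no crosslink, so the share leaves out uncrosslinked reads at such sites.

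By site, the share was 72.0%, 81.1%, 82.4% and 93.5% at the miR-128 site and 17.1%, 7.45%, 22% and 15.2% at the miR-200b site, where the crosslinked T lies inside the match. The let-7 site had 72.5%, 73.0%, 52% and 50%, and the miR-27 site 30.4%, 27.4%, 26.3% and 18.3%. The miR-200b and miR-27 sites thus stayed below the miR-128 site in every library. At the let-7 and miR-27 sites both treated libraries lay below both controls, as at the miR-21 site (43.8%, 60.7%, 40.7% and 25%). At the miR-128 site the order was the opposite, with both treated libraries above both controls. The groups overlapped at the other sites in the fit. Treated shares rested on few covering reads, 34 and 31 at the miR-128 site and 25 and 20 at the let-7 site. No share over all sites stands beside these orders, so nothing is read from them.

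**Figure D4:**
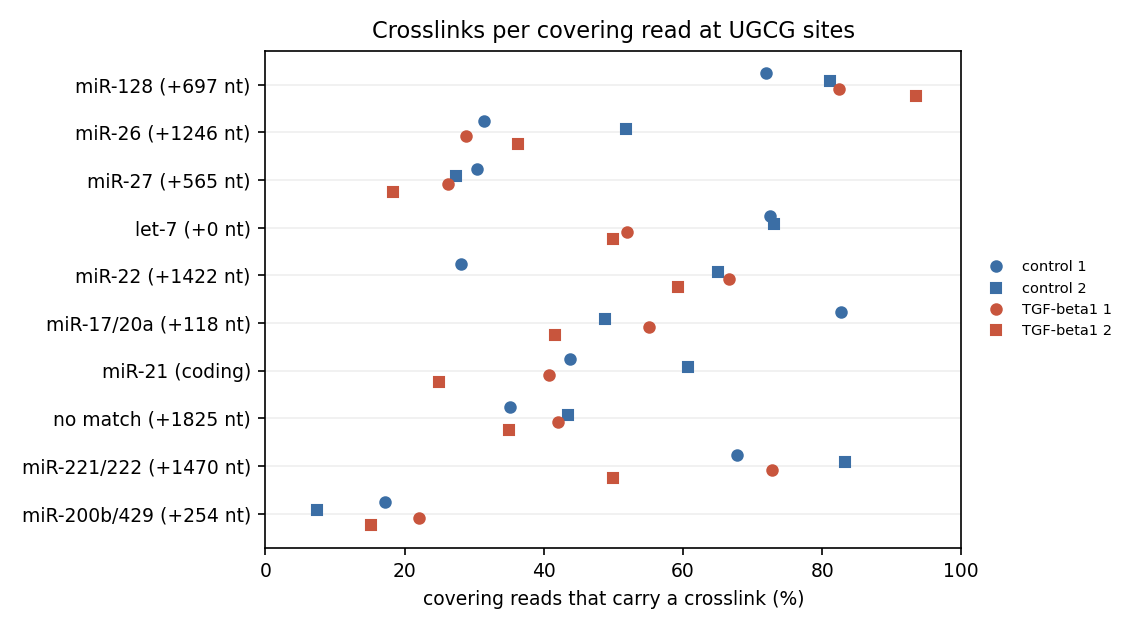
Percent of covering reads that carry a crosslink at the UGCG sites in the fit, 1 point per library. The miR-128 site runs from 72.0% to 93.5% and the miR-200b site from 7.45% to 22%, with the other sites mostly between them.

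The other genes of sphingolipid metabolism were examined from a list of 62 names. Of these, 19 had a crosslink site and 5 had enough reads to test: PSAP, B4GALT5, ORMDL1, SAMD8 and KDSR. None was called in either direction by limma, against 3.08% of the 1266 genes tested (1.58% higher, 1.5% lower after TGF-beta1), and none had an unadjusted p under 0.05. edgeR and DESeq2 on the recovered reads called none either. The median log2 difference of the 5 was -0.05, beside 0.02 for all genes.

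PSAP, the precursor of the saposins that help lysosomal enzymes degrade sphingolipids, had 51 sites and levels of 39.3, 30.01, 52.4 and 39.6 RPM (log2 difference 0.40 ± 0.25, SE, limma adjusted p = 0.542). B4GALT5, which makes lactosylceramide from the product of UGCG, had 10.5, 8.63, 10.5 and 7.97 RPM, and its difference of -0.05 ± 0.33 (SE) changed sign with the scaling and when 1 library was left out. ORMDL1, a regulator of serine palmitoyltransferase, had 11.1, 6.001, 7.37 and 8.83 RPM, and its difference of -0.02 ± 0.38 (SE) did the same. For B4GALT5 and ORMDL1 the groups overlapped. For PSAP both treated libraries lay above both controls, though by little between TGF-beta1 replicate 2 and control replicate 1, which was so for 20.5% of genes tested, and its difference turned to -0.13 without TMM scaling.

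SAMD8, a ceramide phosphoethanolamine synthase, had 8.85, 7.88, 3.69 and 6.55 RPM (log2 difference -0.65 ± 0.39, SE, limma adjusted p = 0.533). KDSR, a reductase in the early steps of ceramide synthesis, had 4.98, 6.75, 1.70 and 3.42 RPM (log2 difference -0.98 ± 0.45, SE, limma adjusted p = 0.381). With 1 library left out, the PSAP difference ran from 0.20 (without control replicate 2) to 0.68 (without TGF-beta1 replicate 2), the SAMD8 difference ran from -0.93 (without TGF-beta1 replicate 2) to -0.27 (without TGF-beta1 replicate 1), and that of KDSR from -1.27 to -0.60 (without the same libraries). Their groups did not overlap, which was so for 23.1% of genes tested with the control libraries higher. The other 14 listed genes with a site, among them CERS2, a ceramide synthase, and DEGS1, the dihydroceramide desaturase, were below the depth needed. CERS2 had 11, 5, 13 and 11 reads and DEGS1 had 4, 6, 3 and 4.

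The genes nearest to UGCG in profile over the 4 libraries were picked from 1265 genes by Euclidean distance between log2 values centred on each gene's mean. They were PSME3 (0.138), DCDC2 (0.238), PARD6B (0.247), ADAMTS3 (0.281) and ASPH (0.290), where the median distance over all genes was 1.97. PARD6B, a polarity protein of epithelial cells, was the deepest of them, with 129, 188, 74 and 76 reads. Its level was 70.9 ± 0.600 RPM in control and 21.3 ± 0.469 RPM after TGF-beta1 (SD, n = 2 each), 3.33-fold lower. ASPH, an aspartyl hydroxylase, had 41, 66, 22 and 27 reads and was 3.41-fold lower.

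PSME3, a regulator of the proteasome, had 7, 12, 2 and 2 reads and was 7.37-fold lower, from few reads. DCDC2, a doublecortin family protein, had 10, 18, 4 and 5 reads, and ADAMTS3, a metalloproteinase, had 15, 33, 9 and 7, at 4.80-fold and 4.55-fold lower. The measure picks genes by this very pattern over 4 libraries, so the direction they share is no separate result.

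**Figure D5:**
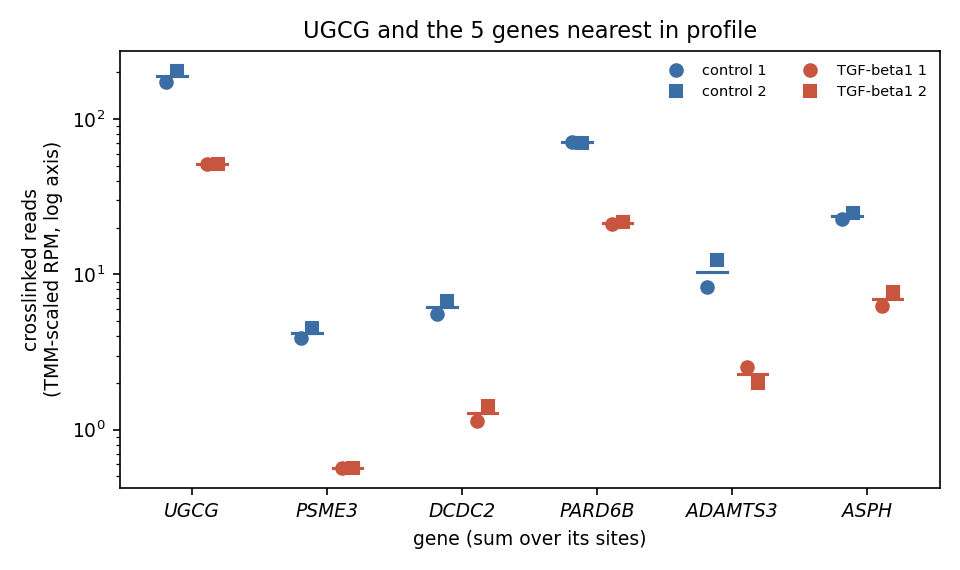
Crosslinked reads (TMM-scaled RPM, log axis) summed over sites for UGCG and the 5 genes nearest in profile, 1 point per library. UGCG lies highest, at 173 and 206 RPM in control and 51.3 and 51.8 RPM after TGF-beta1, and in each gene both treated libraries lie below both controls.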

How the data were processed

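The authors' deposited table lists Argonaute crosslink sites in build hg38 with GENCODE release 27 gene names, per the file headers. For each library it gives covering and crosslinked reads in RPM, scaled by the authors to library totals. The authors' score for each seed is a scaled, rounded number of microRNA reads, and the deposited site list carries a score that was not used. STAR 2.7.1a, bcl2fastq 2.20.0.422 and bedtools are named in the submitters' processing notes. The crosslink caller is not given in the sources used here. Another 4 columns of per-sample values, headed as RNA-seq and matching no sample of this series, were not used.

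Every RPM value was a whole number of reads (100%, tolerance 0.1 reads), so reads and depth were recovered. Because the deposited unit is RPM, the count test planned for counts gave way to limma 3.58.1 on log2(TMM-scaled RPM + 1) with a trended prior, in R 4.3.3. Genes and sites were kept by filterByExpr of edgeR 4.0.16 (minimum count 10), and TMM factors from gene sums were used for both. A call is a Benjamini-Hochberg adjusted p of 0.05 over all features fitted. edgeR on the recovered reads and DESeq2 1.42.0 served as alternatives, and the fits were tested on simulated data. Site usage and shares of covering reads share their reads with the choice of UGCG and are descriptions.

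The members and lists were chosen with earlier results of these data known. Named were all UGCG sites, those with 10 or more reads individually, the 5 genes nearest in profile, and the listed sphingolipid genes that passed the filter. Same-numbered replicates deviated together only weakly (correlation 0.13 over genes, 0.12 over sites, 2 pairs), and the labels do not pair them, so no block was used. Alternatives covered scaling, pseudocount, filter, read coverage, 3′ UTR sites alone, the replicate block and each library left out.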

Additional observations from a re-analysis of the deposited data

How the results depend on the processing

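The lower UGCG level after TGF-beta1 kept its direction under every alternative run. UGCG was chosen for that difference and the alternatives reuse the same libraries, so they show only how its size depends on the processing. No support is drawn from the direction, or from the UGCG site usage below. The log2 difference of -1.85 became -2.39 without TMM, which also moved the median gene to -0.45, and -1.73 with TMM factors from sites, which moved it to 0.12. It was -2.01 from read coverage and -1.69 from 3′ UTR sites alone. Leaving out each library in turn gave -1.91 to -1.73, and the replicate block gave -1.85. Fits of the recovered reads, chosen after seeing the data, gave -1.88 with edgeR and -1.88 with DESeq2. No UGCG site was called for usage under any of the 14 alternatives run, and no sphingolipid gene was called under the 16 run. Unadjusted p-values under 0.05 appeared at 5 of 32 UGCG sites from read coverage (6.37% of all sites there), at 6 of 39 without the filter (6.98%), and at 1 site each with a pseudocount of 5 (4.3%), without control replicate 1 (7.11%) and without control replicate 2 (13%). PSAP turned to -0.13 without TMM. B4GALT5 turned to 0.061 with TMM factors from sites and to 0.12 with 3′ UTR sites, and ranged from -0.19 to 0.20 with a library left out. ORMDL1 turned to 0.090, 0.0015 and 0.095 with TMM factors from sites, DESeq2 size factors and 3′ UTR sites, and ranged from -0.41 to 0.43 with a library left out. The difference in crosslinks per covering read ranged from -4.72 to -2.08 points with a library left out and was -6.91 at sites crosslinked in every library. With 2 libraries per group, and 17 UGCG sites under 10 reads, small differences between sites were not detectable.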
